A study of Homo sapiens with 16 samples.

Results

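The cytosolic ribosomal protein genes encode the proteins of the large and small subunits of the ribosome outside mitochondria. Their members were taken as the protein-coding genes whose symbol is RPL or RPS with a number (and at most one of the letters A, X or L), together with RPLP0, RPLP1, RPLP2 and RPSA, and without RPS27L, wherever a gene had a row in all 4 comparison tables that the authors deposited. The rule found 79 genes, 48 of the large subunit and 31 of the small subunit, among 19344 genes with a row in all 4 tables. GENCODE release 29 holds 80 genes that fit the rule. The one left out, RPL3L, a paralogue of RPL3 known from striated muscle, was listed only in the authors' deposited tables of the Nutlin-3a effect, at base means of 5.70 and 3.79, and was not used further.

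Each cytosolic ribosome carries one copy of nearly every one of these proteins, so cells make them in matched amounts, and much of that matching takes place when their mRNAs are translated. These mRNAs begin with a terminal oligopyrimidine (TOP) tract, a C followed by a run of C and T bases, through which the kinase mTOR and the binding protein LARP1 regulate their translation and stability. RPL5 and RPL11, bound to 5S ribosomal RNA, can also inhibit MDM2, the ubiquitin ligase of p53, when ribosome assembly is disturbed.

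The cells were U2OS, an established human osteosarcoma line, so every group shares that single line. They received a control siRNA (siControl) or siRNA against the transcription factor RFX7 (siRFX7). Treatment lasted 24 h, with DMSO as solvent control or with Nutlin-3a, a small molecule that keeps MDM2 from binding p53, at 10 µM. The 4 groups were siControl with DMSO, siControl with Nutlin-3a, siRFX7 with DMSO and siRFX7 with Nutlin-3a, with 4 libraries of poly(A) RNA each and 16 in all. The labels do not say whether the libraries came from separate cultures, so the standard errors (SE) may measure technical spread only, and the sequence and number of the siRNAs are not given in the sources used here. The study asked which transcripts depend on RFX7 with and without p53 activation.

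The files hold 4 DESeq2 comparisons, each over 8 libraries, and no value of a single library. They give per gene a base mean (its normalised read count averaged over those 8 libraries), a log2 fold change with its SE, and an adjusted p. A gene is called here at an adjusted p below 0.05. Base means summed to between 2.79e+07 and 3.53e+07 per table. In the authors' deposited tables RFX7 itself fell by 2.42 ± 0.07 on the log2 scale under DMSO and by 2.37 ± 0.07 under Nutlin-3a with siRFX7, and the p53 targets CDKN1A and MDM2 rose with Nutlin-3a by 3.24 ± 0.04 and 2.89 ± 0.04 in siControl. Of the osteoblast-lineage markers COL1A1 and SPARC were abundant, and the authors' deposited table for Nutlin-3a in siControl lists base means of 39039 and 31574 for them, whereas COL1A2 was at 13.2. The leukocyte gene PTPRC and the endothelial genes PECAM1 and CDH5 had base means below 10, and the leukocyte gene CD3E had no row in any comparison. Of the other markers RUNX2, ALPL, EPCAM and KRT8 stood at 432, 371, 191 and 24067, KRT8 and EPCAM being listed as epithelial. With siRFX7 under DMSO 3 of the 5 osteoblast-lineage markers were called higher, COL1A1 by 0.38 ± 0.04, SPARC by 0.22 ± 0.03 and ALPL by 0.28 ± 0.08, and so was EPCAM, by 0.54 ± 0.11, while KRT8 had 0.06 ± 0.03 without a call per the authors' deposited table. The part of these markers in the results below was not tested.

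Levels in each group were computed from the base mean and fold change of the authors' deposited tables, assuming equal weight of both groups, and are given as CPM, that is, scaled to the total count implied for that group. They carry no error of their own. For the members, the pair of tables that hold each group gave levels that differed by at most 0.452%. The members together took 2.30% of the implied counts in siControl with DMSO and 2.60% with Nutlin-3a. With siRFX7 they took 2.23% under DMSO and 2.41% under Nutlin-3a. The share was thus higher with Nutlin-3a than with DMSO under either siRNA, and it was lower with siRFX7 than with siControl under either treatment. No test of a share is possible without single libraries. Poly(A) counts are relative, so more ribosomal protein mRNA per cell cannot be told apart from less of other mRNA, and no value here is of protein or translation.

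The members covered a wide range of measured abundance. Their base means in the mean of the authors' deposited tables ran from 93.6 to 59597, with a median of 6981. Per kilobase of transcript the highest included RPL8 at 61758, RPS3 at 39182, RPS24 at 30628 and RPLP1 at 26054 in base mean. At the other end stood RPS28 at 113, RPL21 at 168, RPS26 at 259, RPS27 at 261 and RPL36A at 310.5 per kilobase. RPL8 alone made up 8.27% of the members' implied counts in siControl with DMSO, and the 10 most counted members made up 41.0% of them. The order depends on the transcript chosen: per kilobase of coding sequence RPLP1 came first, at 91191, ahead of RPL8 at 77298, and RPL21 came last at 286.

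The lowest members were mostly those whose sequence recurs elsewhere in the genome. Most ribosomal protein genes have processed pseudogenes, and a read that matches several genes equally well may be dropped or assigned among them, a setting not given in the sources used here. For each member the share of 50-base stretches around its coding sequence that occur in no other gene of GENCODE 29 was computed. Among the 21 members with at least 80% of such unique stretches the median base mean was 13851 per kilobase of transcript. It was 11216 among the 31 members with 40 to 80% and 1156 among the 27 with less than 40%. Of the 17 members with a base mean under 1000, 14 had less than 40% unique stretches, and the other 3 were RPL10L, RPL39L and RPL41. Across the 79 genes the level per kilobase and the unique share had a Spearman rho of 0.58, a description across genes that share libraries. Pseudogenes named after ribosomal protein genes had rows too, 272 of them in the table for Nutlin-3a in siControl, with a summed base mean equal to 30.2% of the members' per the authors' deposited table. Levels of members with few unique stretches are therefore uncertain, and the unique share is given beside many such genes below.

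**Figure D1:**
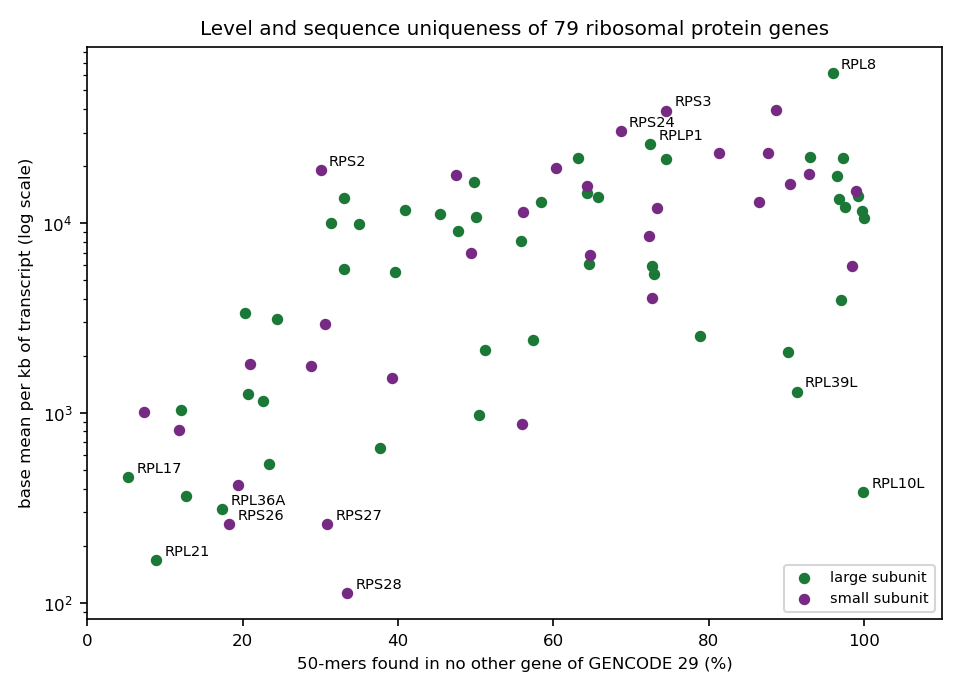
Base mean per kilobase of transcript (vertical axis, log scale, mean of the authors' 4 tables) against the share of 50-base stretches found in no other gene of GENCODE 29 (horizontal axis, percent) for the 79 genes, 1 point a gene, coloured by subunit. Most genes under 1000 per kilobase lie at the left; RPL10L and RPL39L, paralogues with unique sequence, are low at the right.

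Most members shared the TOP-like sequence at the annotated transcript start. RefSeq promoter windows (GRCh38.p14) were matched for 63 of the 79 members. A run of at least 8 C or T bases within the stretch from 5 bases before to 15 bases after the start was found in 45 of the 63 (71.4%), against 7.83% of 15780 other genes. A C at the start followed by 4 C or T bases was found in 42 (66.7%), against 4.35% of the others. The windows of 30 bases below show some of the genes named in the comparisons that follow. RPS19, RPL13A and RPL3 had the largest rises with Nutlin-3a in siControl. RPS29, RPS25 and RPL26 were among the 5 members that fell most with siRFX7 under at least 1 treatment. RPL10L and RPS27L are paralogues that part from the rest. No window is shown for RPL7, which rose most with siRFX7. Each window runs 5′ to 3′ on the gene's strand, and the 16th base is the RefSeq start. Capitals mark the longest run of C and T of 4 or more bases inside the stretch described above, the only place where runs were counted.

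RPS19 (chr19:41860240-41860269, plus strand, GRCh38.p14): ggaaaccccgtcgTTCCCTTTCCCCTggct
RPL13A (chr19:49487593-49487622, plus strand, GRCh38.p14): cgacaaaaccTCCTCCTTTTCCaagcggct
RPL3 (chr22:39319609-39319638, minus strand, GRCh38.p14): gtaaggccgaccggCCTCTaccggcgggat
RPS25 (chr11:119018329-119018358, minus strand, GRCh38.p14): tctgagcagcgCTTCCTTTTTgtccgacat
RPL26 (chr17:8383179-8383208, minus strand, GRCh38.p14): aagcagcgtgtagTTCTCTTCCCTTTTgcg
RPS29 (chr14:49598696-49598725, minus strand, GRCh38.p14): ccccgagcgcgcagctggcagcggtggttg
RPL10L (chr14:46651767-46651796, minus strand, GRCh38.p14): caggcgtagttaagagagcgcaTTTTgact
RPS27L (chr15:63157463-63157492, minus strand, GRCh38.p14): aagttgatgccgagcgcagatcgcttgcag

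RPS19, RPL13A, RPS25 and RPL26 hold runs of 13, 12, 10 and 14 bases. RPL3 holds a run of 5, RPL10L one of 4 that is made of T alone, and RPS29 and RPS27L hold none of 4 or more at the start that RefSeq gives. Where cells start transcription elsewhere, the annotated start does not show the tract, and start sites in these cells were not measured. Other letters searched on both strands of the promoters (250 bases before to 50 after the start) were shared less widely or were about as common in other genes. CCGGAAG, a core that ETS factors bind, occurred in 33.3% of members and 14.2% of others. GGGCGG, the core of SP1 sites, occurred in 55.6% and 58.5%. A longer sequence that includes the YY1 core, matched exactly, occurred in 4.76% and 1.92%. The shorter YY1 core alone was not searched, so how many promoters hold it is not known here. TATAAA occurred in 9.52% and 9.63%, and GTTGCC, letters found in the X-box that RFX factors bind, in 14.3% and 12.6%. A match describes these letters only.

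With Nutlin-3a in siControl nearly all calls among the members were small rises. Of the 79 members 38 were called higher and 4 lower, and 66 had a fold change above 0 per the authors' deposited table. Their median log2 fold change was 0.12, against 0.01 over all genes of that table and -0.07 over the 6541 genes whose base mean, averaged over the 4 tables, was 1000 or more, called abundant below. Over all genes tested 37.9% were called, 18.3% higher and 19.6% lower, and over the abundant genes 64.1% were called, 22.1% higher and 42% lower. A fold change above 0 was found in 83.5% of the members, 51.2% of all genes and 38.6% of the abundant genes. All changes of the members were small: none of the 79 reached 1 on the log2 scale and 11 reached 0.25. Of the 6541 abundant genes 117 reached 1 and 2091 reached 0.25. The large subunit had 23 higher and 3 lower of 48, the small subunit 15 and 1 of 31. All 4 members called lower had an average base mean under 1000, whereas the 62 abundant members had 37 called higher and 0 lower. In either direction 42 of the 62, or 67.7%, had an unadjusted p below 0.05 by DESeq2, against 69.9% of the abundant genes. Of the 21 members with at least 80% unique sequence, a split chosen after seeing the data, 9 were called higher and 2 lower.

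RPS19, a small-subunit protein whose gene is the one most often mutated in Diamond-Blackfan anaemia, had the largest rise. The authors' deposited tables imply levels of 398 CPM for RPS19 in siControl with DMSO, 543 in siControl with Nutlin-3a, 368 in siRFX7 with DMSO and 484 in siRFX7 with Nutlin-3a. Both Nutlin-3a groups lay above both DMSO groups. The rise was 0.41 ± 0.05 (log2 ± SE, adjusted p = 7.31e-18), or 32.8%, per the authors' deposited table for siControl. RPS19 (ENSG00000105372, chr19:41859918-41872926, plus strand) has 98.4% unique sequence, so its value is among the better defined.

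RPL13A, a large-subunit protein also known outside the ribosome for silencing inflammatory mRNAs, came second with a rise of 0.40 ± 0.04 (adjusted p = 7.94e-18) per the authors' deposited table. For RPL13A the authors' deposited tables imply 355 CPM with DMSO and 479 with Nutlin-3a in siControl, and 291 and 361 in siRFX7. Its level was lower with siRFX7 than with siControl under either treatment. RPL13A (ENSG00000142541, chr19:49487554-49492308, plus strand) has 35% unique sequence and shares stretches with 12 annotated pseudogenes.

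RPL3, which lies near the peptidyl transferase centre of the large subunit, rose by 0.36 ± 0.04 (adjusted p = 7.63e-23) per the authors' deposited table. Implied by the authors' deposited tables, RPL3 stood at 531 and 702 CPM in siControl with DMSO and Nutlin-3a and at 516 and 601 in siRFX7. The siControl group with Nutlin-3a stood highest and the siRFX7 group with Nutlin-3a lay between it and the DMSO groups. RPL3 (ENSG00000100316, chr22:39312882-39320389, minus strand) has 58.4% unique sequence.

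RPS3A and RPL10A completed the 5 largest rises, at 0.28 ± 0.08 and 0.27 ± 0.04 per the authors' deposited table. RPS3A, near the mRNA exit of the small subunit, has only 11.8% unique sequence and shares stretches with 36 pseudogenes, so its value is uncertain, whereas RPL10A, part of the L1 stalk, has 55.8%. Just below them stood RPS18 at 0.27 ± 0.04 and RPS4X, the X-linked copy of a small-subunit protein, at 0.26 ± 0.03 per the authors' deposited table. RPS4X had 81.3% unique sequence and an adjusted p of 1.54e-17. The other members called higher lay between RPL32 at 0.09 ± 0.04 and RPL34 at 0.25 ± 0.06 per the authors' deposited table.

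The 4 members called lower were RPL36A at -0.34 ± 0.14 (adjusted p = 0.037), RPL39L at -0.33 ± 0.05 (1.24e-09), RPL10L at -0.28 ± 0.09 (0.00619) and RPS26 at -0.22 ± 0.09 (0.0344) per the authors' deposited table. RPL39L and RPL10L are paralogues of RPL39 and RPL10 that are known from testis and from some cancers and are low in most tissues. Both are well defined by sequence, at 91.3% and 99.9% unique stretches, while RPL36A and RPS26 have 17.3% and 18.3%. RPL36A and RPS26 lost their calls when fold changes were centred on the median of genes whose base mean was 100 or more, with adjusted p of 0.0596 and 0.0721, and that centring moved the split of calls to 44 higher and 2 lower.

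**Figure D2:**
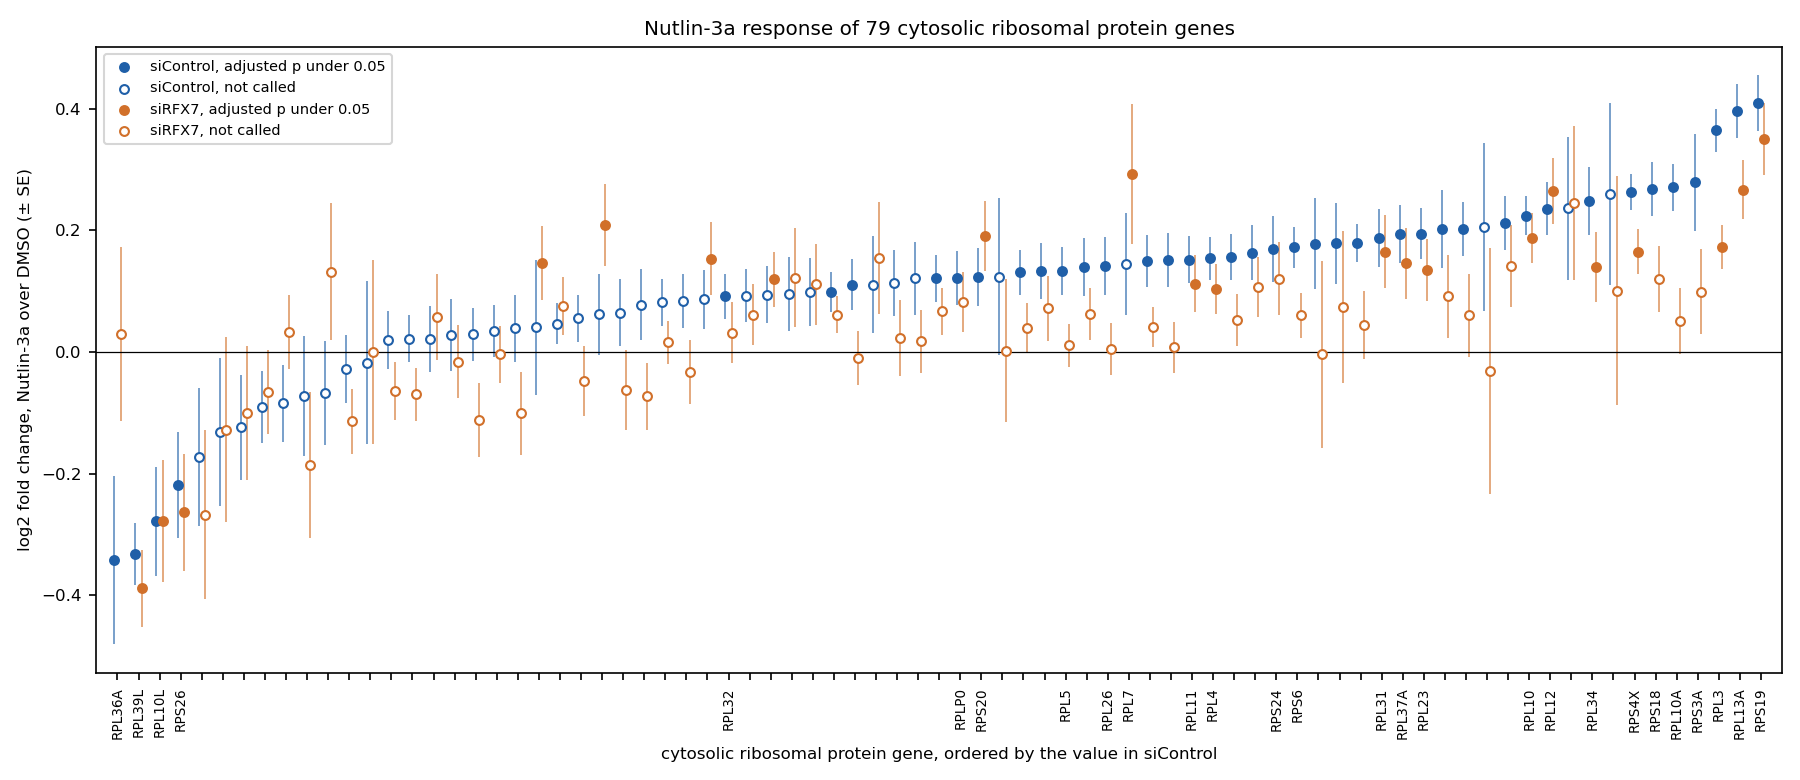
Log2 fold change of Nutlin-3a over DMSO (vertical axis) for the 79 genes, ordered by the value in siControl (blue) with the value in siRFX7 beside it (orange) and some of the genes named below the axis. Bars are the authors' SE and filled points have an adjusted p under 0.05. Most blue points lie above 0, from RPL36A at -0.34 to RPS19 at 0.41, and 58 of 79 orange points lie below their blue partner.

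With Nutlin-3a in siRFX7 fewer members were called. Of the 79, 18 were called higher and 3 lower, 57 had a fold change above 0 and the median was 0.06 per the authors' deposited table, against 0.01 over all genes and -0.07 over the abundant genes. Over all genes 39.1% were called, 18.7% higher and 20.3% lower, and over the abundant genes 63.2%, 22% higher and 41.2% lower. The share of members called higher, 22.8%, was close to these backgrounds, whereas the share called lower was below them. A fold change above 0 was found in 72.2% of the members, 51.1% of all genes and 39.0% of the abundant genes. Under centring on the median of genes whose base mean was 100 or more, 24 members or 30.4% were called higher, against 20.7% of all genes and 25.3% of the abundant genes. Of the 21 members with at least 80% unique sequence 4 were called higher and 2 lower, 12 had a fold change above 0 and the median was 0.02 per the authors' deposited table. The SE of the members was larger here, with a median of 0.06 against 0.05 in siControl. RPS19 again led at 0.35 ± 0.06 (adjusted p = 2.89e-08), followed by RPL7 at 0.29 ± 0.11, RPL13A at 0.27 ± 0.05 and RPL12, a protein of the stalk base, at 0.26 ± 0.05 per the authors' deposited table. RPL7 has 12.8% unique sequence. RPL39L at -0.39 ± 0.06, RPL10L at -0.28 ± 0.10 and RPS26 at -0.26 ± 0.10 were the members called lower.

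The Nutlin-3a tables of siControl and siRFX7 share no library. Of the 38 members called higher in siControl and the 18 in siRFX7, 13 were called higher under both siRNAs per the authors' deposited tables: RPL3, RPL4, RPL10, RPL11, RPL12, RPL13A, RPL23, RPL31, RPL34, RPL37A, RPS4X, RPS19 and RPS20. RPL10L, RPL39L and RPS26 were called lower in both, and 0 members were called in opposite directions. Across the 79 genes the log2 fold changes of the siControl and siRFX7 tables had a Pearson r of 0.75 and a Spearman rho of 0.66. This overlap and correlation were not computed over all genes, so nothing particular to the members is read from them.

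The difference of the responses, siRFX7 minus siControl, was tested for every gene from the fold changes and SE of the authors' deposited tables. Of the members 1 was called, RPL3, with a difference of -0.19 ± 0.05 (adjusted p = 0.0253). Its rise of 28.7% in siControl was 12.7% in siRFX7. Over all 21339 genes 0.937% were called, 0.173% higher and 0.764% lower, and over abundant genes 2.14%, 0.382% higher and 1.76% lower. The share of members, 1.27%, lay between these. RPL3's adjusted p ranged from 0.0159 to 0.0265 under centring and a base mean filter, and was 0.179 when statistics were scaled to their robust spread among genes of like abundance, so the call was lost there.

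The differences of the other members were mostly small and negative. Of the 79, 58 were below 0, as were 10716 of all 21339 genes and 3433 of the 6541 abundant genes. The median was -0.06, against -0.00055 over all genes and -0.0043 over the abundant genes. In the test of the difference 12 members, or 15.2%, had an unadjusted p below 0.05. Over all genes this share was 6.32% (3.85% with a difference below 0), and over the abundant genes 12.1%. All 12 were among the 62 abundant members, of which they were 19.4%. Among the 21 members with at least 80% unique sequence the median difference was -0.10. The next after RPL3 by adjusted p was RPL10A, at -0.22 ± 0.07 (adjusted p = 0.0798, 95% interval -0.35 to -0.09), a value that missed the threshold. RPL36A had the largest difference in size at 0.37 ± 0.20 (95% interval -0.02 to 0.76, adjusted p = 0.853), at the low counts and few unique stretches noted above. The difference of RPS19 had a 95% interval of -0.21 to 0.09.

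With siRFX7 under DMSO the members moved in both directions. Of the 79, 18 were called higher and 21 lower per the authors' deposited table, and the median was -0.03 against -0.0024 over all genes. The SD across members was 0.23, against 0.14 with Nutlin-3a in siControl. Over the abundant genes it was 0.25 and 0.33, so a wide spread with siRFX7 is not read as a trait of the members. The background was 37.4% called over all genes, 19.9% higher and 17.5% lower, and over abundant genes 56.1% called, 35.7% higher and 20.4% lower. Both subunits split in this way, with 12 higher and 14 lower of the large and 6 and 7 of the small. Of the 79 members 19 reached 0.25 in size and 4 reached 0.5. Of the 6541 abundant genes 1545 reached 0.25 and 328 reached 0.5. Of the 21 members with at least 80% unique sequence 7 were called higher and 6 lower, at a median of -0.05.

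With siRFX7 under Nutlin-3a more members were called lower than higher. There were 29 lower and 11 higher per the authors' deposited table, with a median of -0.07 against -0.01 over all genes and 0.04 over the abundant genes. Over all genes 32.6% were called, 17.2% higher and 15.4% lower, and over the abundant genes 52.5%, 33% higher and 19.5% lower. The large subunit had 19 lower and 9 higher of 48, the small subunit 10 and 2 of 31. Among the 21 members with at least 80% unique sequence 8 were called lower and 4 higher. That more fold changes lay below those under DMSO, 58 of 79, is the same quantity as the difference of the Nutlin-3a responses and adds nothing to it.

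RPS29, a zinc-binding protein of the small subunit, had the largest fall under DMSO. Levels of RPS29 implied by the authors' deposited tables were 179.8 and 174 CPM in siControl with DMSO and Nutlin-3a and 112 and 119 in siRFX7. Both siRFX7 groups lay well below both siControl groups. The log2 fold change was -0.62 ± 0.05 (adjusted p = 2.22e-36) under DMSO, where the level fell by 34.8%, and -0.50 ± 0.10 (adjusted p = 1.37e-05) under Nutlin-3a per the authors' deposited tables. RPS29 (ENSG00000213741, chr14:49570984-49599164, minus strand) has 64.4% unique sequence, and Nutlin-3a did not give a call in either siRNA group.

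RPS25, which many viral internal ribosome entry sites require, changed by -0.53 ± 0.04 under DMSO (adjusted p = 2.37e-34) and -0.42 ± 0.13 under Nutlin-3a (adjusted p = 0.008) per the authors' deposited tables. For RPS25 the authors' deposited tables imply 210.0 CPM with DMSO and 222 with Nutlin-3a in siControl, and 139.8 and 159.7 in siRFX7. Again the siRFX7 groups stood below the siControl groups. RPL17 and RPL6, both of the large subunit, were also among the lowest, RPL17 at -0.56 ± 0.10 and -0.36 ± 0.10 and RPL6 at -0.49 ± 0.06 and -0.45 ± 0.06 per the authors' deposited tables. RPL6 and RPL17 have 20.4% and 5.25% unique sequence and are uncertain.

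RPL36 changed by -0.36 ± 0.05 under DMSO and -0.41 ± 0.07 under Nutlin-3a per the authors' deposited tables and has 97.5% unique sequence. Implied by the authors' deposited tables, RPL36 stood at 240.2 and 252 CPM in siControl with DMSO and Nutlin-3a and at 179 and 183 in siRFX7. The siRFX7 groups lay below the siControl groups, and Nutlin-3a gave no call under either siRNA. Under Nutlin-3a the lowest value was that of RPS27 at -0.51 ± 0.17 (adjusted p = 0.00933), a low-count gene with 30.9% unique sequence that was not called under DMSO, at -0.35 ± 0.17 (adjusted p = 0.086) per the authors' deposited tables.

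RPL7 had the largest rise with siRFX7. Levels of RPL7 implied by the authors' deposited tables were 9.42 and 10.7 CPM in siControl with DMSO and Nutlin-3a and 14.0 and 17.6 in siRFX7. It rose by 0.62 ± 0.10 under DMSO and 0.77 ± 0.10 under Nutlin-3a per the authors' deposited tables, with adjusted p of 1.43e-08 and 3.2e-14. With 12.8% unique sequence and stretches shared with 29 pseudogenes, its counts are few and uncertain.

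RPL27, with 96.5% unique sequence, was the better defined case. For RPL27 the authors' deposited tables imply 244 CPM with DMSO and 272 with Nutlin-3a in siControl, and 304 and 318 in siRFX7. It rose by 0.38 ± 0.05 under DMSO (adjusted p = 1.58e-14) and 0.28 ± 0.06 under Nutlin-3a (adjusted p = 9.91e-05) per the authors' deposited tables, and both siRFX7 groups lay above both siControl groups. RPL37, RPL37A and RPL38, small large-subunit proteins with at least 90.1% unique sequence, rose by 0.34 ± 0.04, 0.30 ± 0.03 and 0.26 ± 0.04 under DMSO per the authors' deposited table. Their rises under Nutlin-3a were 0.21 ± 0.05, 0.26 ± 0.06 and 0.16 ± 0.06 per the authors' deposited table. RPL15, RPL23A and RPS15A were also higher under both treatments, RPL15 by 0.35 ± 0.04 and 0.27 ± 0.05, RPL23A by 0.35 ± 0.07 and 0.25 ± 0.08 and RPS15A by 0.22 ± 0.07 and 0.25 ± 0.07 per the authors' deposited tables, with 31.4%, 20.7% and 39.2% unique sequence.

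The knockdown tables under DMSO and Nutlin-3a share no library, and their calls and fold changes of the members were set side by side. Of the 18 called higher under DMSO and the 11 under Nutlin-3a, 11 were called higher in both. Of the 21 and 29 called lower, 18 were called lower in both, and 0 were called in opposite directions per the authors' deposited tables. The log2 fold changes had a Pearson r of 0.91 and a Spearman rho of 0.89 across the 79 genes. The same overlap and correlations over all genes were not computed, so these values are not read as particular to the members. Both tables compare the same pair of siRNAs, so other siRNAs against RFX7 are not covered.

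**Figure D3:**
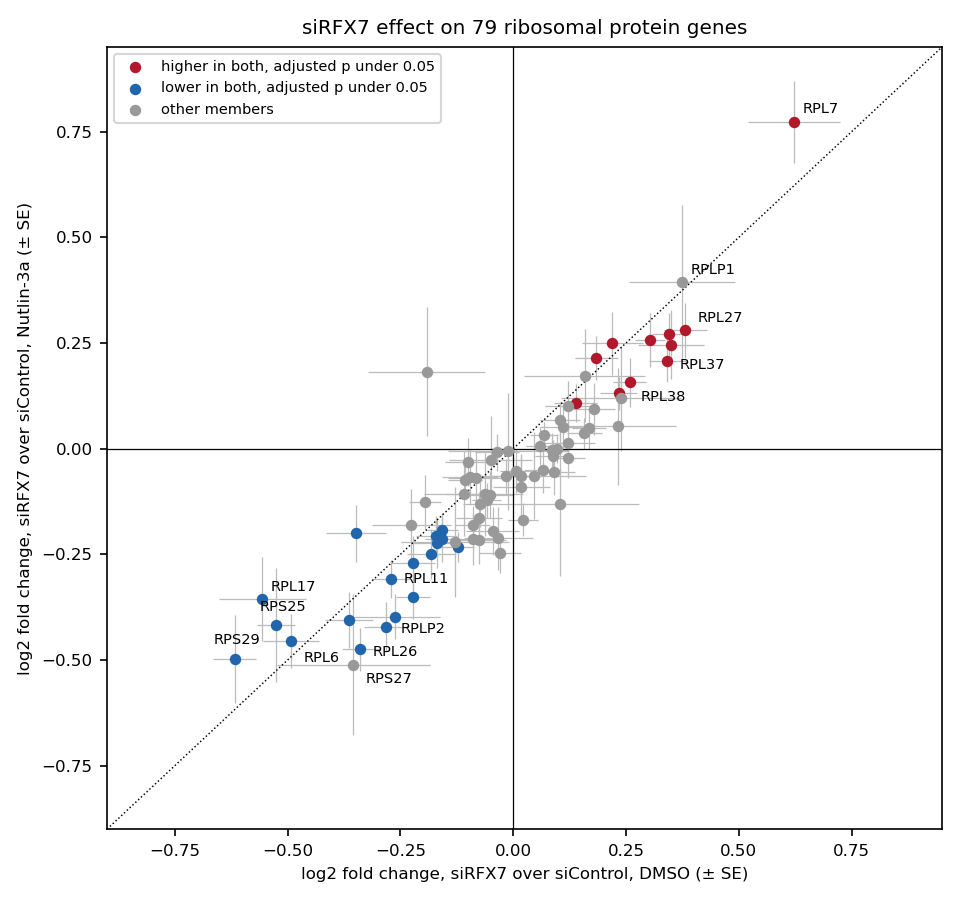
Log2 fold change of siRFX7 over siControl under DMSO (horizontal axis) and under Nutlin-3a (vertical axis) for the 79 genes, 1 point a gene, with the authors' SE as bars and a dotted line of equal values. Red points (11) were called higher and blue points (18) lower under both treatments; RPL7 lies at the top right and RPS29 at the lower left.

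Counted over the 4 comparisons, which share groups, 6 members were called in all of them. The same count over all genes was not made, and from 52.5% to 64.1% of the abundant genes were called in each comparison. Such counts are therefore not read as a trait of the members. RPL10, RPL11 and RPL13A were higher with Nutlin-3a under both siRNAs and lower with siRFX7 under both treatments. RPL10 has 24.4% unique sequence and shares stretches with 13 pseudogenes, so its value is uncertain. RPL12 and RPL37A were higher in all 4 comparisons, and RPL39L was lower in all 4. RPL12 changed with siRFX7 by 0.18 ± 0.05 and 0.21 ± 0.05 per the authors' deposited tables. Implied by the authors' deposited tables, RPL12 stood at 95.6 and 116 CPM in siControl with DMSO and Nutlin-3a and at 104 and 129 in siRFX7. It stood lowest in siControl with DMSO and highest in siRFX7 with Nutlin-3a, at 39.6% unique sequence. Levels of RPL39L implied by the authors' deposited tables were 36.9 and 30.1 CPM in siControl with DMSO and Nutlin-3a and 31.4 and 24.8 in siRFX7. RPL39L had the reverse order, highest in siControl with DMSO and lowest in siRFX7 with Nutlin-3a. Of the rest, 17 members were called in 3 comparisons, 23 in 2 and 21 in 1. The 12 called in none included RPL9, RPL14, RPL21, RPL22, RPL24, RPL28, RPL41 and RPS28. Of these, RPL21 and RPS28 had base means of 157 and 179.6 in siControl per the authors' deposited table. RPL9, RPL21, RPL22 and RPS28 have 12.1%, 8.92%, 23.4% and 33.5% unique sequence and are uncertain.

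By role, RPL5 and RPL11, tied to p53 through MDM2, moved in opposite directions with siRFX7 under DMSO. RPL11 rose with Nutlin-3a by 0.15 ± 0.04 in siControl (adjusted p = 0.000447) and 0.11 ± 0.05 in siRFX7 (0.0456) per the authors' deposited tables. For RPL11 the authors' deposited tables imply 738 CPM with DMSO and 843 with Nutlin-3a in siControl, and 586 and 654 in siRFX7. It fell with siRFX7, at -0.27 ± 0.04 under DMSO and -0.31 ± 0.04 under Nutlin-3a per the authors' deposited tables. RPL5, its partner in the particle with 5S ribosomal RNA, rose with siRFX7 under DMSO, at 0.16 ± 0.04 (adjusted p = 0.000244), and was not called under Nutlin-3a, at 0.04 ± 0.04 (0.495) per the authors' deposited tables. Implied by the authors' deposited tables, RPL5 stood at 415 and 467 CPM in siControl with DMSO and Nutlin-3a and at 443 and 461 in siRFX7. RPL5's Nutlin-3a response was 0.13 ± 0.04 in siControl (called) and 0.01 ± 0.04 in siRFX7 (not called) per the authors' deposited tables, and the test of that difference gave an adjusted p of 0.546.

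Of the other MDM2 binders, RPL23 rose with Nutlin-3a by 0.19 ± 0.04 and 0.14 ± 0.05 in siControl and siRFX7 per the authors' deposited tables. With siRFX7 it was called lower under Nutlin-3a, at -0.13 ± 0.05 (adjusted p = 0.0413), and not under DMSO, at -0.07 ± 0.04 (0.114), per the authors' deposited tables. RPL26, which also binds p53 mRNA, rose in siControl by 0.14 ± 0.05 and had 0.0045 ± 0.04 in siRFX7, and it was among the members that fell most with siRFX7, at -0.34 ± 0.04 and -0.47 ± 0.05 per the authors' deposited tables. Levels of RPL26 implied by the authors' deposited tables were 273 and 309 CPM in siControl with DMSO and Nutlin-3a and 207 and 214 in siRFX7. The siRFX7 groups lay below the siControl groups, at 33.1% unique sequence. RPS7 was called only in the siRFX7 over siControl comparison under Nutlin-3a, at -0.20 ± 0.06 per the authors' deposited table. It has 28.8% unique sequence.

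The acidic stalk of the large subunit, which recruits translation factors, split under siRFX7. RPLP2 fell, at -0.28 ± 0.05 under DMSO and -0.42 ± 0.06 under Nutlin-3a, and so did RPLP0, at -0.17 ± 0.05 and -0.21 ± 0.05 per the authors' deposited tables. RPLP1 rose under DMSO by 0.37 ± 0.12 (adjusted p = 0.00556) and stood at 0.39 ± 0.18 under Nutlin-3a without passing (adjusted p = 0.0869) per the authors' deposited tables. For RPLP1 the authors' deposited tables imply 876 CPM with DMSO and 889.7 with Nutlin-3a in siControl, and 1088 and 1123 in siRFX7. Implied by the authors' deposited tables, RPLP2 stood at 259 and 272 CPM in siControl with DMSO and Nutlin-3a and at 204 and 195 in siRFX7. The implied level of RPLP1 was higher and that of RPLP2 lower with siRFX7 under both treatments. Of the 3, RPLP0 was the one called with Nutlin-3a, at 0.12 ± 0.04 in siControl per the authors' deposited table.

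Among the genes named for Diamond-Blackfan anaemia, RPS24 rose with Nutlin-3a in siControl, by 0.17 ± 0.05, and fell with siRFX7, at -0.22 ± 0.05 and -0.27 ± 0.06 per the authors' deposited tables. RPL35A and RPS10 were called lower with siRFX7 under DMSO, at -0.11 ± 0.04 and -0.23 ± 0.09, RPS10 at 7.29% unique sequence. RPS6, the substrate of the S6 kinases downstream of mTOR, rose with Nutlin-3a by 0.17 ± 0.03 in siControl and fell with siRFX7, at -0.12 ± 0.03 and -0.23 ± 0.04 per the authors' deposited tables.

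Paralogues outside the rule or of narrow expression often departed from the main copies. RPS27L, a known p53 target, rose with Nutlin-3a by 1.73 ± 0.05 in siControl and 1.80 ± 0.07 in siRFX7 and did not pass with siRFX7, at -0.07 ± 0.07 and 0.01 ± 0.05 per the authors' deposited tables. Levels of RPS27L implied by the authors' deposited tables were 42.1 and 143 CPM in siControl with DMSO and Nutlin-3a and 38.4 and 138 in siRFX7. Its main copy RPS27 had 0.26 ± 0.15 with Nutlin-3a in siControl and was not called (adjusted p = 0.173) per the authors' deposited table. RPL26L1 fell with Nutlin-3a, at -0.46 ± 0.06 and -0.52 ± 0.08 in siControl and siRFX7 per the authors' deposited tables, whereas RPL26 rose in siControl. RPL22L1 fell with siRFX7, at -0.44 ± 0.07 and -0.28 ± 0.08, while RPL22 passed in none of the 4 authors' deposited tables. RPL10 rose with Nutlin-3a by 0.22 ± 0.03 and 0.19 ± 0.04 where RPL10L fell, and RPL39 had 0.24 ± 0.12 without a call where RPL39L fell per the authors' deposited tables. The main copies RPL10, RPL22 and RPL39 have 24.4%, 23.4% and 37.7% unique sequence, so their values are uncertain. RPL36AL was called once, at 0.10 ± 0.04 with siRFX7 under DMSO.

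Other parts of the translation machinery were counted beside the members, with no test between lists. Their counts are to be read beside the shares of all and abundant genes called in each comparison, given above. At an unadjusted p below 0.05 by DESeq2 with Nutlin-3a, the shares of all and abundant genes were 43.9% and 69.9% in siControl. In siRFX7 they were 44.9% and 69.1%. Mitochondrial ribosomal protein genes, which serve translation inside mitochondria, had mostly lower calls with Nutlin-3a: of 78, 2 were called higher and 38 lower in siControl and 0 and 37 in siRFX7, with medians of -0.15 per the authors' deposited tables, and 42 had an unadjusted p below 0.05 by DESeq2 in siRFX7. The 38 are 48.7% of the list, against 42% called lower among the abundant genes in siControl. With siRFX7 they had 7 higher and 29 lower under DMSO and 4 and 28 under Nutlin-3a. Dedicated chaperones of ribosomal proteins and assembly factors of the 5S particle had 0 higher and 8 lower of 12 with Nutlin-3a in each siRNA group (9 and 10 at an unadjusted p below 0.05 by DESeq2), at medians of -0.23 and -0.25 where the members' medians were above 0. BRIX1, an assembly factor, and RPF2, which brings the 5S particle to the large subunit, fell with Nutlin-3a, at -0.46 ± 0.05 and -0.38 ± 0.04 in siControl per the authors' deposited table. GRWD1, the chaperone of RPL3, fell with Nutlin-3a, at -0.33 ± 0.05 and -0.46 ± 0.05, and rose with siRFX7 by 0.66 ± 0.04 and 0.53 ± 0.05 per the authors' deposited tables.

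Translation factors with TOP mRNAs had 6 higher and 2 lower of 17 with Nutlin-3a in siControl and 1 and 5 in siRFX7, at medians of 0.02 and 0.01 per the authors' deposited tables. With siRFX7 they had 3 higher and 8 lower under DMSO and 1 and 9 under Nutlin-3a, at medians of -0.14 in each. Among the abundant genes 35.7% were called higher and 20.4% lower with siRFX7 under DMSO, and 33% and 19.5% under Nutlin-3a. EEF1A1, the elongation factor that brings tRNA to the ribosome, rose with Nutlin-3a by 0.37 ± 0.05 in siControl, and TPT1 by 0.26 ± 0.04 per the authors' deposited table. EIF4B changed by -0.18 ± 0.04 and -0.33 ± 0.04 with siRFX7. The snoRNA host genes, whose introns carry guide RNAs for rRNA modification and many of which have TOP starts, had 1 higher and 2 lower of 12 in siControl and 0 and 3 in siRFX7 with Nutlin-3a (6 at an unadjusted p below 0.05 by DESeq2 in siRFX7). With siRFX7 they had 2 higher and 2 lower under DMSO and 1 and 4 under Nutlin-3a, SNHG16 rising by 0.70 ± 0.07 and 0.63 ± 0.05 per the authors' deposited tables.

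Regulators of TOP mRNAs and their upstream brakes, with MYC and MXD4, made a list of 20 genes. It was chosen with earlier results of these data known. With Nutlin-3a 5 were called higher and 4 lower in siControl and 7 and 7 in siRFX7. With siRFX7 9 and 0 were called under DMSO and 8 and 4 under Nutlin-3a per the authors' deposited tables. With siRFX7 under DMSO 12 of the 20, or 60%, had an unadjusted p below 0.05 by DESeq2. Over all genes this share was 44.2% and over the abundant genes 62.7%. LARP1, which binds the TOP tract, fell with Nutlin-3a, at -0.27 ± 0.04 and -0.23 ± 0.04 in siControl and siRFX7 per the authors' deposited tables. RPTOR, the subunit that defines mTOR complex 1, rose with siRFX7 by 0.79 ± 0.05 and 0.71 ± 0.04, and MTOR by 0.13 ± 0.05 and 0.15 ± 0.04, per the authors' deposited tables. MLST8, of the same list, went the other way with siRFX7. It had -0.10 ± 0.04 under DMSO without a call and was called lower under Nutlin-3a, at -0.19 ± 0.05. SESN1, a p53 target that restrains mTOR complex 1, rose with Nutlin-3a by 2.09 ± 0.07 and 2.08 ± 0.07, whereas the related brakes SESN3 and DDIT4 rose by 1.94 ± 0.08 and 1.80 ± 0.07 in siControl and by 0.31 ± 0.11 and 0.52 ± 0.07 in siRFX7. Whether these levels bear on those of the ribosomal protein mRNAs was not tested.

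**Figure D4:**
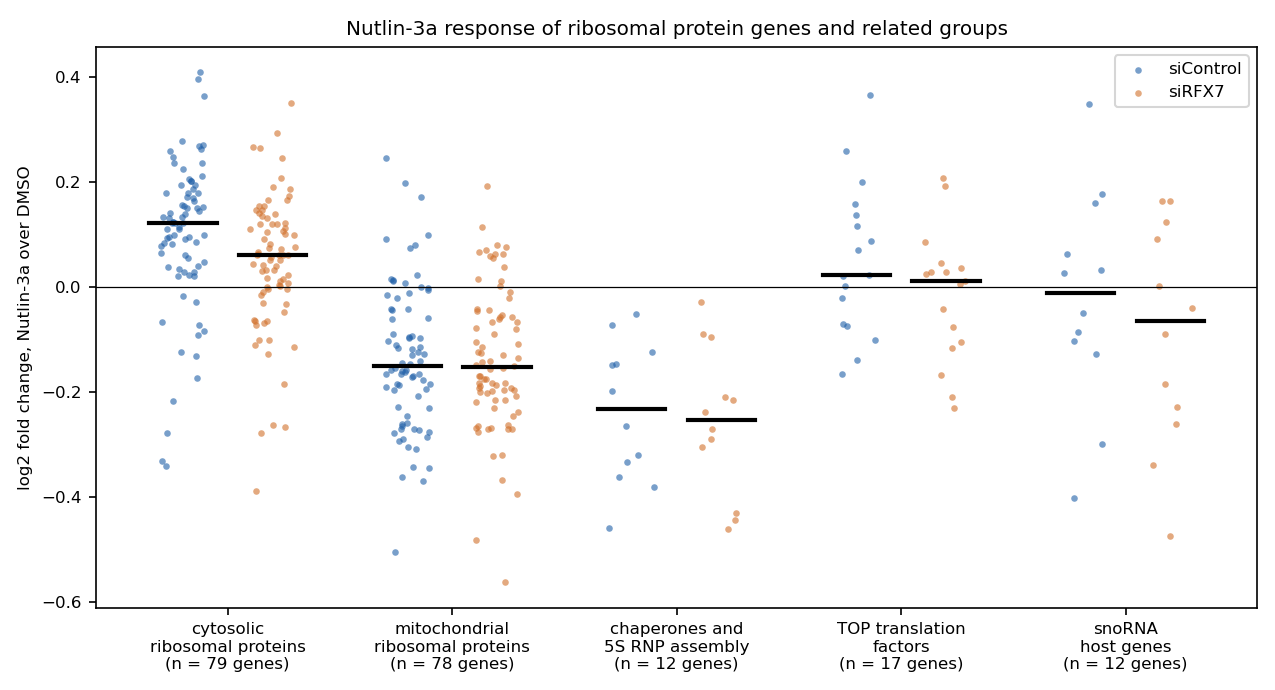
Log2 fold change of Nutlin-3a over DMSO (vertical axis) for the genes of 5 lists in siControl (blue) and siRFX7 (orange), 1 point a gene, with the list's median as a black line. The cytosolic list has medians of 0.12 and 0.06, the mitochondrial list -0.15 in both siRNA groups and the chaperone list -0.23 and -0.25.

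The responses were also set beside the annotated TOP tract and other properties of the members. The 45 with a run of at least 8 C or T bases had a median of 0.11 with Nutlin-3a in siControl and the 18 with a shorter run 0.12 per the authors' deposited table. With siRFX7 the medians were -0.05 and -0.01 under DMSO and -0.07 and -0.15 under Nutlin-3a. For Nutlin-3a in siControl, Spearman's rho across the 79 genes was 0.28 with base mean, 0.29 with coding length, -0.08 with GC content and 0.03 with the unique share. For siRFX7 under DMSO it was 0.22, 0.10, -0.06 and 0.07. In 3′ UTRs of annotated transcripts the letters GTATCTA occurred in 5 members (6.33%; RPL10, RPL37, RPS20, RPS24 and RPS29) against 8.80% of 11506 other protein-coding genes whose base mean was 100 or more. GACGTA occurred in 4 (5.06%; RPLP1, RPS6, RPS9 and RPS29) against 5.28%. The members' 3′ UTRs had a median of 66 bases against 1017 in the others, and the GTATCTA sites of RPS24 and RPS29 and the GACGTA sites of RPS6, RPS9 and RPS29 lie only in transcripts other than the one chosen for the gene. The pseudogenes, which share reads with the members, had 54 called higher and 2 lower of 272 with Nutlin-3a in siControl and 51 higher and 25 lower of 195 with siRFX7 under DMSO per the authors' deposited tables, and their part in the members' values was not tested.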

How the data were processed

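Poly(A) RNA of 16 U2OS libraries was prepared with the RNeasy Plus Mini and TruSeq stranded mRNA kits, per the labels' protocols. The submitters' processing notes name bcl2fastq 2.19.1.403, Trimmomatic 0.39, FastQC 0.11.9, cutadapt 2.10, SAMtools 1.10, Picard, featureCounts 1.6.5, DESeq2 1.20.0 and the build hg38. The aligner, gene annotation and treatment of reads with several matches are not given in the sources used here.

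The authors deposited 4 DESeq2 tables and no counts of single libraries. Per the file headers, each gives the base mean (a signal: the mean normalised count over 8 libraries), the log2 fold change and its SE on the log2 scale, the Wald statistic (a score) and the p-value with its adjusted form. In the deposited tables the statistic equals the fold change over its SE, and each adjusted p-value equals a Benjamini-Hochberg adjustment over the whole table. Depth per library is therefore not known, and precision is that of the SE. With DESeq2 as the authors' test, whether fold changes were shrunk is not given in the sources used here.

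From these, group levels, counts of calls (adjusted p below 0.05) and medians were computed with Python 3.11.15, pandas 2.3.3, numpy 2.4.6 and scipy 1.17.1. The difference of the Nutlin-3a responses used both SEs, a two-sided normal p and adjustment over 21339 genes. Start windows come from RefSeq (GRCh38.p14) and transcripts from GENCODE 29. Transcripts were taken by basic tag, APPRIS principal, CCDS and support level 1, then the shortest, and unique stretches are 50 bases long, from 50 bases either side of the coding sequence.

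Named genes are the 5 highest and 5 lowest called members of each comparison, members whose response differed, those of the fixed roles and paralogue pairs, and the 5 highest and lowest per kilobase, of which some are not reported here. Members and lists were chosen with earlier results of these data known, and the 2 3′ UTR motifs came from an earlier scan of them. RPS18, RPS4X, RPL34, RPL37, RPL38, the members listed by number of calls, and the genes of related lists that are given with values, were named after their values were seen. The unique-stretch measure, its limits, the transcript rule and the C/T run were settled after the files were seen.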

Additional observations from a re-analysis of the deposited data

Results flagged for a closer look

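Among the members and the genes of the related lists, the Nutlin-3a response of 7 genes differed between siRFX7 and siControl by the test of the difference (siRFX7 minus siControl, log2, adjusted over 21339 genes, of which 200 were called). Among the members this was RPL3, at -0.19 ± 0.05 (adjusted p = 0.0253), from a rise of 0.36 ± 0.04 in siControl to 0.17 ± 0.04 in siRFX7 per the authors' deposited tables. RPL3 was not called with siRFX7 under DMSO and was lower with it under Nutlin-3a, at -0.17 ± 0.04. Its difference lost the call when the statistics of that test were scaled to their robust spread (adjusted p = 0.179). Among the translation factors with TOP mRNAs it was EEF2, the elongation factor that moves the ribosome along the mRNA, at -0.17 ± 0.05 (adjusted p = 0.0327). EEF2 rose in siControl by 0.20 ± 0.03 and had 0.03 ± 0.03 in siRFX7 per the authors' deposited tables.

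In the list of TOP mRNA regulators, which also holds MYC and MXD4, the difference was called for 5 of 20 genes, all below 0. These are 25% of the list, against 0.937% of all genes and 2.14% of the abundant genes. The list was chosen with earlier results of these data known, so nothing is read from this share. SESN3 had -1.63 ± 0.14 and DDIT4 -1.28 ± 0.10, both inhibitors of mTOR complex 1, and MXD4, a repressor that competes with MYC for its partner MAX, had -1.44 ± 0.12. SESN2 had -0.32 ± 0.07 and MYC, an activator of many ribosomal protein genes, -0.21 ± 0.06 (adjusted p = 0.041). At an adjusted p below 0.01 the differences of RPL3, EEF2 and MYC did not pass. SESN2, SESN3, DDIT4 and MXD4 rose with Nutlin-3a under both siRNAs per the authors' deposited tables, and MYC was called lower with Nutlin-3a in siRFX7, at -0.27 ± 0.04, and not in siControl, at -0.06 ± 0.04. Whether these genes bear on the members was not tested.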

How the results depend on the processing

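Centring on the median of genes whose base mean was 100 or more moved fold changes by 0.03, 0.03, -0.01 and -0.01 (Nutlin-3a in siControl and siRFX7, siRFX7 under DMSO and Nutlin-3a) and reversed no call of the members it was run on. In siControl 6 members gained a call and 2, RPL36A and RPS26, lost theirs. With Nutlin-3a in siRFX7 6 gained a call, RPS24 among them (adjusted p = 0.0390), which made 27. An adjusted p below 0.01 left 9 members called with Nutlin-3a in siRFX7 and 0 with a different response, where 12 had an unadjusted p below 0.05. Asking in addition for a fold change of at least 0.25 left 10, 7, 18 and 16 members called, by construction of that limit. Restricting to the 21 members with at least 80% unique stretches, an alternative added after the data were seen, left 11, 6, 13, 12 and, for the difference, 0 (5 at an unadjusted p below 0.05), since fewer genes were counted. Dividing statistics by their robust SD left 0 members with a different response, and the cause was not tested. The restriction to those 21 members moved the members' median from 0.060 to 0.016 with Nutlin-3a in siRFX7, from -0.033 to -0.052 with siRFX7 under DMSO and from -0.061 to -0.098 for the difference. Their other medians and their shares of counts stayed within 1.5 times in the alternatives run on them. No paired analysis was possible because the tables hold no values of single libraries, and for the same reason leaving out each replicate was not run. The median SE with Nutlin-3a in siControl was 0.09 for the 17 members with a base mean under 1000 and 0.04 for the others, although RPLP1, an abundant member, had the largest SE with siRFX7 under Nutlin-3a, at 0.18.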
